A study of Mus musculus with 18 samples.

Results

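Translational efficiency is the amount of ribosome-protected RNA a gene gives per amount of its messenger RNA. It was followed here in 5347 genes of TC1 cells with and without a guide against Nat10. These are the genes found in both the mRNA and the Ribo-seq (ribosome profiling) tables with a mean of at least 5 FPKM in each assay, of 10747 genes found in both tables. FPKM is a count of fragments scaled to the length of the gene and to the mapped fragments of the library. The change in translational efficiency is the footprint change minus the mRNA change, sgNAT10 minus WT, each on the log2(FPKM + 1) scale. A value of 1 means that footprints gained a doubling over the mRNA. All 5347 genes entered the tests, and 5286 of them are protein coding. Of the other genes in both tables, 796 were under 5 FPKM only in mRNA, 1113 only in footprints and 3491 in both. Just inside the limit in mRNA stood Smg9 at a mean of 5.002 FPKM with a change in efficiency of -0.70, and just outside it stood Mtr at 4.998 FPKM with 0.22.

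TC1 is a mouse cell line that the labels call a fibrosarcoma. Its 2 genotypes here were wild type (WT), with no guide, and sgNAT10, with a CRISPR guide against Nat10. Each genotype had 2 mRNA libraries and 2 Ribo-seq libraries, made from total RNA extracted with TRIzol. No library with a control guide was among those used, and the labels do not say whether the replicates were separate cultures or whether sgNAT10 is 1 clone. The p-values below therefore measure only the spread between libraries, which may be technical. The age of the cultures and the preparation of the footprints are not given in the sources used here.

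In ribosome profiling, nuclease digests RNA that ribosomes do not cover, and the remaining fragments are sequenced beside the mRNA of the same cells. Footprints follow both how much mRNA there is and how many ribosomes sit on each molecule, so dividing them by the mRNA separates translation from transcript abundance. Ribosomes that stall or slow down also add footprints. NAT10 is the acetyltransferase that places N4-acetylcytidine on ribosomal, transfer and, by some accounts, messenger RNA, and it is needed for ribosome assembly in the nucleolus. Translation of several groups of mRNAs is known to be set separately from their abundance. Examples are the mRNAs of ribosomal proteins, which begin with a terminal oligopyrimidine tract (TOP), and those of ferritin, which carry an iron responsive element in the 5′ UTR. The mitochondrially encoded mRNAs are read by ribosomes of their own.

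The start of the annotated transcript is the part of the sequence that defines a TOP mRNA, a C followed by pyrimidines. Below are 30 bases around it for the 5 TOP-list genes with the highest and the 3 with the lowest change in efficiency among those whose RefSeq start carries the run. All were picked because they carry the run, so its presence in them is no result. Each begins 10 bases before the start, and the capitals mark the C and the unbroken pyrimidines after it.
Eif3f: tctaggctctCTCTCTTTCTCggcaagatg
Rps27: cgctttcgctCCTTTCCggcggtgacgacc
Rack1: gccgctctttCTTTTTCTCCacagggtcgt
Rpl14: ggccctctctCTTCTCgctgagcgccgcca
Rps15a: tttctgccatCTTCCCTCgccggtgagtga
Rpl38: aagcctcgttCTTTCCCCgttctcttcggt
Rpl35: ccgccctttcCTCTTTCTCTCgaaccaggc
Rpl15: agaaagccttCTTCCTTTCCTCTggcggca

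In RefSeq on GRCm38.p6 these windows are chr7:108934405-108934434 (Eif3f, plus strand), chr3:90213629-90213658 (Rps27, minus), chr11:48800350-48800379 (Rack1, plus), chr9:120571507-120571536 (Rpl14, plus) and chr7:118116128-118116157 (Rps15a, minus). The last 3 are chr11:114668570-114668599 (Rpl38, plus), chr2:39005112-39005141 (Rpl35, minus) and chr14:18270967-18270996 (Rpl15, minus). The run was searched on the transcript's strand only, at the annotated start, as a C and at least 4 further letters that are C or T. It stood at 18 of 93 RefSeq starts of the TOP lists (19.35%) against 823 of 32851 starts in all (2.505%). The values of these genes are given with the TOP mRNAs below.

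Depth was much lower for footprints than for mRNA. In mRNA, the whole reads behind the values came to 14.63 M and 12.24 M reads in WT and 11.95 M and 11.19 M in sgNAT10. The Ribo-seq libraries gave 2.744 M and 2.695 M in WT and 3.148 M and 1.514 M in sgNAT10. The median gene had 217 and 214.5 footprint reads in the WT libraries, 257 in sgNAT10 replicate 1 and 122 in sgNAT10 replicate 2. The guide's target checked the labels: Nat10 mRNA (chr2:103721258-103762954) was 5.36 and 5.30 FPKM in WT and 3.59 and 3.95 in sgNAT10 (log2 change -0.41, SE 0.0593, limma adjusted p = 0.00266). Its footprints were 11.9 and 17.4 FPKM in WT and 8.33 and 6.60 in sgNAT10, a change of -0.87 that did not pass the test (adjusted p = 0.193). The mean mRNA level of Nat10 was under 5 FPKM, so it is not among the 5347 genes. Of 10 fibroblast markers, 8 were listed, with a summed mRNA level of 38.1 to 40.4 FPKM in WT and 110.8 to 112.7 in sgNAT10. Col1a2 and S100a4 were present, with means of 27.5 and 15.8 FPKM. Thy1 was at 1.04 and 1.35 FPKM in WT and at 42.6 and 40.9 in sgNAT10. The defining markers Col1a1 and Dcn were near 0, with means of 0.196 and 0.0612 FPKM. Of 7 macrophage markers, 3 were listed and summed to 5.494 to 5.996 FPKM in WT and 12.2 to 13.7 in sgNAT10. The listed markers of epithelium (2 of 8), T cells (1 of 6) and endothelium (2 of 6) each summed to under 1 FPKM in every library. The part of the higher fibroblast and macrophage sums in the results below was not tested. In bulk samples, more cells of a type and more RNA per cell cannot be told apart.

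Over the 5347 genes, footprints followed the mRNA. The median change was 0.01 in mRNA, 0.00 in footprints and -0.02 in translational efficiency, and from the 5th to the 95th percentile the efficiency change ran from -0.68 to 0.65. Across genes, which are not independent replicates, the mRNA and footprint changes had a Pearson r of 0.804 and a Spearman rho of 0.706. Of 255 genes with at least a doubling in mRNA, 250 had a footprint change of the same direction, with medians of 1.35 in mRNA and 1.46 in footprints. Of 101 genes with at least a halving, 99 had footprints of the same direction, with medians of -1.35 and -1.48. Genes with larger mRNA changes showed the same: 55 of 56 with a change of at least 2 and 22 of 22 with a change of at most -2 had footprints of the same direction.

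The 2 assays differed in how closely replicates repeated, and this sets what could be called. The median standard error of a change was 0.0440 in mRNA and 0.274 in footprints, 6.23 times as large, which left a median standard error of 0.279 for translational efficiency. In mRNA, limma called 33.7% of the 11735 genes tested higher in sgNAT10 and 29.6% lower at an adjusted p under 0.05. Among the 5347 genes this came to 1985 higher (37.1%) and 1825 lower (34.1%). In footprints, 1.81% of the 9707 genes tested were called higher and 1.28% lower, with 150 (2.81%) and 88 (1.65%) among the 5347. Of the 228 genes called in both assays, 227 moved in the same direction.

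Translational efficiency passed the test in 8 of the 5347 genes. The test combines the 2 limma fits, with their standard errors added in squares and p-values adjusted over all 5347 genes. Tmem203 was higher, 0.0187% of the genes tested. The lower genes were mt-Co1, mt-Nd2, H2afx, Ybx1, Fth1, Gm42418 and Gm24270, 0.131% of those tested. At an unadjusted p under 0.05 stood 463 genes, 225 higher and 238 lower, which is 8.66% of those tested. Each of the 8 kept its direction when any single library was left out. Without any 1 Ribo-seq library, however, Gm24270 was the only one of them that passed, and only without either WT library.

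A second description asked for size and sign without a test: a change of at least 1 whose sign was the same in all 16 combinations of 1 library per group and assay. It was met by 59 higher genes (1.10%) and 80 lower genes (1.50%), called separated here, and 28 further genes had a change of that size without the constant sign. Of the 139 separated genes, 97 had moved on the footprint side, meaning that the footprint change was at least 2 times the mRNA change in size. In 10 genes the mRNA side had moved by that rule, in 22 the 2 sides moved in opposite directions with neither dominating, and in 10 both moved the same way by different amounts. In at least 1 assay, 31 of the 59 higher genes had a WT mean under 5 FPKM and 29 of the 80 lower genes a sgNAT10 mean under 5. Such genes reached the limit only through the other genotype, so that assay had to differ. Over all 5347 genes, 647 (12.1%) had a mean under 5 in either genotype. The separated genes had few footprints. Their median was 76.5 reads per library against 206.5 over all genes, and 32.8% of those with recovered reads had under 50 against 6.38% over all genes.

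**Figure D1:**
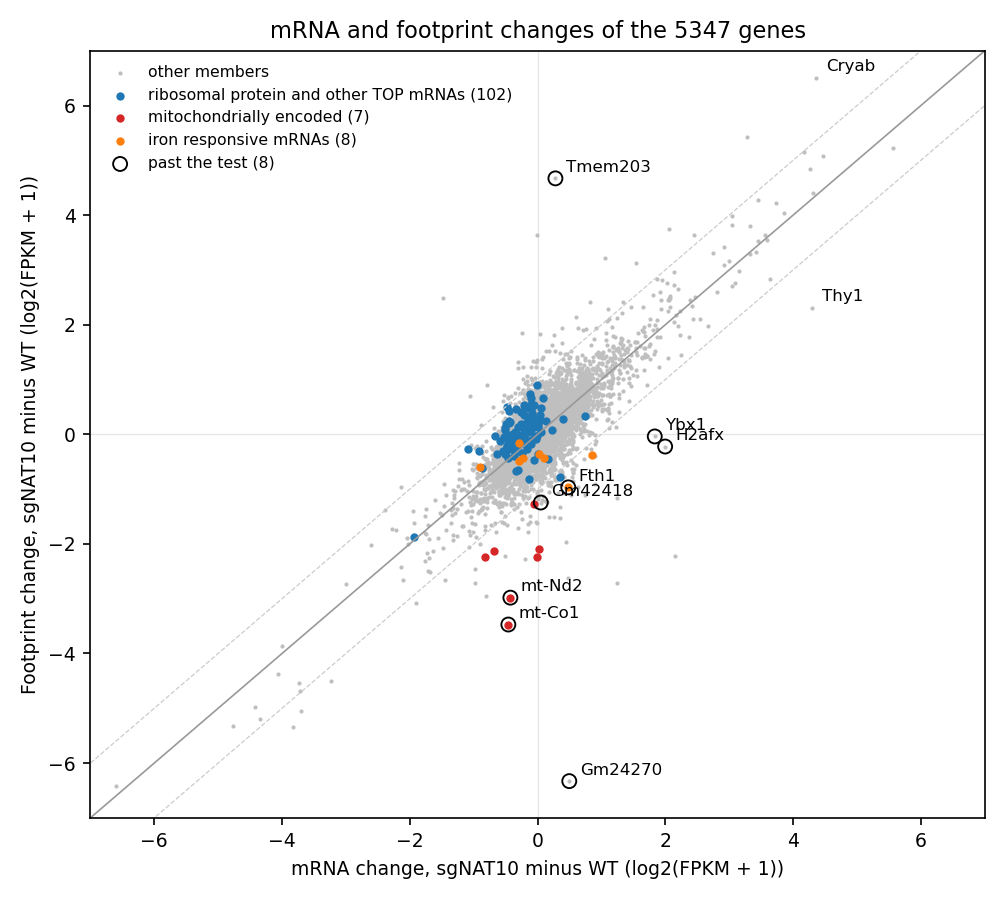
The change in mRNA (x axis) against the change in footprints (y axis), sgNAT10 minus WT on the log2(FPKM + 1) scale, with 1 point per gene for the 5347 genes. The solid line marks equal changes and the dashed lines a change in efficiency of 1 or -1. The 7 mitochondrially encoded genes lie below the line with footprints lower by 1.27 to 3.47, H2afx and Ybx1 lie to the right of it with raised mRNA and level footprints, and most of the 102 TOP mRNAs lie just above it.

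**Figure D2:**
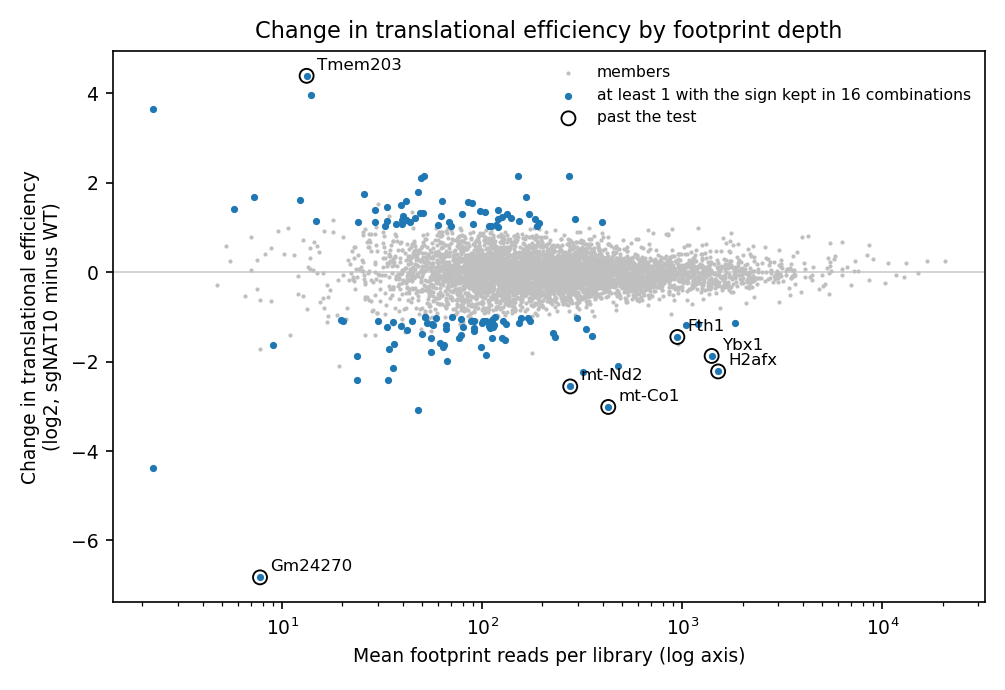
The change in translational efficiency (y axis, log2) against the mean number of footprint reads per library (x axis, log scale), 1 point per gene with recovered reads. Separated genes (blue) lie mostly at low read numbers, while H2afx, Ybx1 and Fth1 stand below the other genes of their depth. Gm42418, whose footprint reads were not recovered, is not drawn.

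Among the gene lists, the largest median difference was in the mitochondrially encoded genes, where footprints fell far more than mRNA. These genes encode subunits of the respiratory chain and are translated inside the organelle. Of 13 such genes, 7 were in both tables and all 7 were among the 5347: mt-Nd1, mt-Nd2, mt-Nd4, mt-Nd5, mt-Nd6, mt-Co1 and mt-Cytb. All 7 were separated lower, against 1.50% of all genes, and mt-Co1 and mt-Nd2 passed the test. Footprints were called lower in 6 of them (85.7%, against 1.65% of all genes) and mRNA in 4 (57.1%, against 34.1%). The median change was -0.43 in mRNA, -2.24 in footprints and -2.10 in efficiency, and over the 16 library combinations the median efficiency change ranged from -2.70 to -1.46. Over all genes the median efficiency change was -0.02.

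mt-Co1 encodes the catalytic core of cytochrome c oxidase. Its mRNA was 5201 and 4530.4 FPKM in WT and 3659 and 3414 in sgNAT10. Its footprints were 170.4 and 160.0 FPKM in WT and 14.9 and 13.1 in sgNAT10, from 830, 759, 82 and 35 reads. The genotypes did not overlap in either assay, and the footprints were 11.8-fold lower where the mRNA was 1.38-fold lower. The log2 changes were -0.46 in mRNA (adjusted p = 0.00437) and -3.47 in footprints (SE 0.174, adjusted p = 0.00132), so efficiency was lower by 8.08-fold (-3.01, SE 0.189, adjusted p = 0.000542, limma).

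mt-Nd2, a subunit of complex I, had 2005 and 1693 FPKM of mRNA in WT and 1486 and 1266 in sgNAT10. Its footprints were 147 and 158 FPKM in WT and 24.3 and 14.0 in sgNAT10, which gave an efficiency change of -2.56 (SE 0.294, adjusted p = 0.0206, limma). mt-Nd1 and mt-Cytb showed the parting most plainly, since their mRNA differed by less than the spread between libraries. The mRNA of mt-Nd1, another complex I subunit, was 6429 and 5690 FPKM in WT and 6227 and 5796 in sgNAT10, with footprints of 208 and 150 against 48.0 and 27.9. The mRNA of mt-Cytb, the cytochrome of complex III, was 2114 and 1862 FPKM in WT and 2085 and 1928 in sgNAT10, with footprints of 205 and 231 against 73.5 and 34.4. The efficiency changes were -2.23 and -2.10 and did not pass the test over all genes (adjusted p = 0.087 and 0.15). mt-Nd5, mt-Nd6 and mt-Nd4, at -1.42, -1.45 and -1.21, did not pass it either (adjusted p = 0.0735, 0.087 and 0.327). mt-Nd6 lies on the opposite strand to mt-Nd5, and how the counting treated strand is not given in the sources used here.

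The 2 mitochondrial ribosomal RNAs were also read in the Ribo-seq libraries. mt-Rnr1, the small subunit rRNA, was at 6977 and 4579 FPKM in the WT footprint libraries and 2809 and 3379 in sgNAT10, with an efficiency change of -0.80 (adjusted p = 0.359). mt-Rnr2, the large subunit rRNA, was at 31547 and 18449 FPKM in WT and 17718 and 21624 in sgNAT10, so that its genotypes overlapped (-0.64, adjusted p = 0.567). Neither change was separated by the rule above.

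The nuclear genes for the same complexes did not show this as a group. The 75 nuclear respiratory subunits had a median efficiency change of -0.01, with 36 above and 39 below 0. The 69 mitochondrial ribosomal proteins had a median of 0.12, with 42 above 0. Among the nuclear subunits, Cox5b, a subunit of cytochrome c oxidase, was separated lower: its mRNA was 57.2 and 55.6 FPKM in WT and 57.4 and 55.5 in sgNAT10, and its footprints were 93.0 and 78.3 against 47.6 and 35.5 (-1.04, adjusted p = 0.245). Ndufs5, a complex I subunit, was separated on the mRNA side, with 27.7 and 30.3 FPKM of mRNA in WT and 55.1 and 54.9 in sgNAT10 (-1.31, adjusted p = 0.365). Its footprints overlapped between the genotypes, at 56.1 and 27.7 against 30.9 and 28.3.

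In the ferritin genes, mRNA rose while footprints fell or did not pass the test. Ferritin stores iron, and its mRNAs are held back from ribosomes when iron regulatory proteins bind them. Fth1, the heavy chain (chr19:9980600-9985111), had 1090.3 and 1106 FPKM of mRNA in WT and 1531 and 1534 in sgNAT10 (log2 change 0.48, adjusted p = 0.00011). Its footprints were 467 and 500 FPKM in WT and 271 and 224 in sgNAT10, from 1276, 1329, 838 and 335 reads (-0.97, adjusted p = 0.0248). Both assays separated the genotypes, in opposite directions, and efficiency fell by 1.45 on the log2 scale (SE 0.14, adjusted p = 0.0206, limma). Ftl1, the light chain (chr7:45457944-45459886), had 377 and 385 FPKM of mRNA in WT and 694 and 683 in sgNAT10 (0.85, adjusted p = 2.49e-05). Its footprints of 24.1 and 20.7 FPKM in WT met 20.9 and 13.8 in sgNAT10 and overlapped. The efficiency change of Ftl1 was -1.22 (SE 0.277, adjusted p = 0.317), separated on the mRNA side. Ferritin genes have many near-identical pseudogene copies, so reads shared among copies make these levels uncertain.

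Other mRNAs of the iron list stood closer to the rest. The list held 8 measured genes of 10, with a median efficiency change of -0.30 and 6 below 0. Tfrc, the transferrin receptor, which imports iron and carries its elements in the 3′ UTR, was at -0.20, Slc11a2, an iron transporter, at -0.53 and Hmox1, which frees iron from heme, at 0.29. Aco1, the cytosolic aconitase that doubles as an iron regulatory protein, was at -0.19, and Ireb2, the other iron regulatory protein, at 0.13. None of these 5 was separated.

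H2afx and Ybx1 parted from the other side: their mRNA rose and their footprints did not follow. H2afx (chr9:44334715-44336077; RefSeq now calls it H2ax) encodes the histone variant that is phosphorylated at DNA breaks. Its mRNA was 19.7 and 19.4 FPKM in WT and 83.3 and 78.9 in sgNAT10 (log2 change 2.00, SE 0.0377, adjusted p = 9.09e-06). Its footprints were 401 and 417 FPKM in WT and 332 and 369 in sgNAT10 (-0.22, adjusted p = 0.35). Footprints per mRNA went from a ratio of 20.9 to 4.32, and efficiency fell by 2.22 on the log2 scale (SE 0.123, adjusted p = 0.000542, limma).

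Ybx1 (chr4:119277327-119296265) encodes a cold shock domain protein that packages mRNA and controls its translation. Its mRNA was 371 and 370 FPKM in WT and 1303 and 1344 in sgNAT10 (1.83, adjusted p = 7.32e-06). Its footprints were 184 and 205 FPKM in WT and 191 and 187 in sgNAT10, an overlap (-0.04, adjusted p = 0.899). Efficiency fell by 1.87 (SE 0.133, adjusted p = 0.00517, limma). Ybx1 also has processed pseudogenes, with the same doubt about shared reads. Other genes separated lower on the mRNA side were Sardh, Fbxo4, Foxf1, E2f1 and 4930579G24Rik. E2f1, a transcription factor of S phase entry, had 13.2 and 13.6 FPKM of mRNA in WT and 25.4 and 26.7 in sgNAT10, with footprints of 7.14 and 6.82 against 4.17 and 9.37 (-1.03, adjusted p = 0.573). The single higher gene with a moved mRNA side was Hgh1.

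Most other histones had an efficiency change below 0, and none passed the test. Replication-dependent histone mRNAs end in a stem-loop and have no poly(A) tail, so their measured level depends on how the RNA was selected, which the sources used here do not give. Of 69 such genes, 12 were among the 5347, and 10 of the 12 had an efficiency change below 0, against 52.8% of all genes. Their median was -0.45. When a mean of at least 20 FPKM was asked for in both assays it was 0.57. That is the value of the single highest of the 12 genes and does not describe the group. None was called. Their median change was 0.33 in mRNA, with 6 called higher (50% against 37.1% of all genes), and 0.12 in footprints. In the WT libraries the median ratio of footprint to mRNA FPKM was 37.9 for these histones against 1.33 over all genes, and in sgNAT10 it was 28.3 against 1.30. Hist1h4f, an H4 gene, had 4.20 and 4.73 FPKM of mRNA in WT and 9.20 and 13.6 in sgNAT10, with footprints of 796 and 682 against 753 and 972 (-0.95, adjusted p = 0.221). Its WT mRNA mean was 4.47 FPKM, so it reached the limit of 5 FPKM in mRNA only through sgNAT10. Copies of H4 are near identical, so its reads may be split among them. The 8 histone variants listed as polyadenylated, H2afx among them, had a median of -0.16 with 7 below 0. The WT ratio of footprint to mRNA FPKM was 20.9 for H2afx, against a median of 1.30 in that list. Whether RNA selection bears on the measured mRNA level of H2afx was not tested.

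Ybx3 and Pabpc1, which also bind mRNA, were separated lower and were chosen here after their values were seen. Ybx3, a close relative of Ybx1, had 133 and 133 FPKM of mRNA in WT and 220 and 224 in sgNAT10, and footprints of 157 and 115 against 90.5 and 106. Pabpc1, the main cytoplasmic poly(A)-binding protein, had 395 and 402 FPKM of mRNA against 504 and 509, and footprints of 121 and 117 against 78.8 and 60.0. In both the mRNA was higher and the footprints lower in sgNAT10 with no overlap in either assay. Their efficiency changes of -1.19 and -1.13 did not pass the test over all genes (adjusted p = 0.173 and 0.15).

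**Figure D3:**
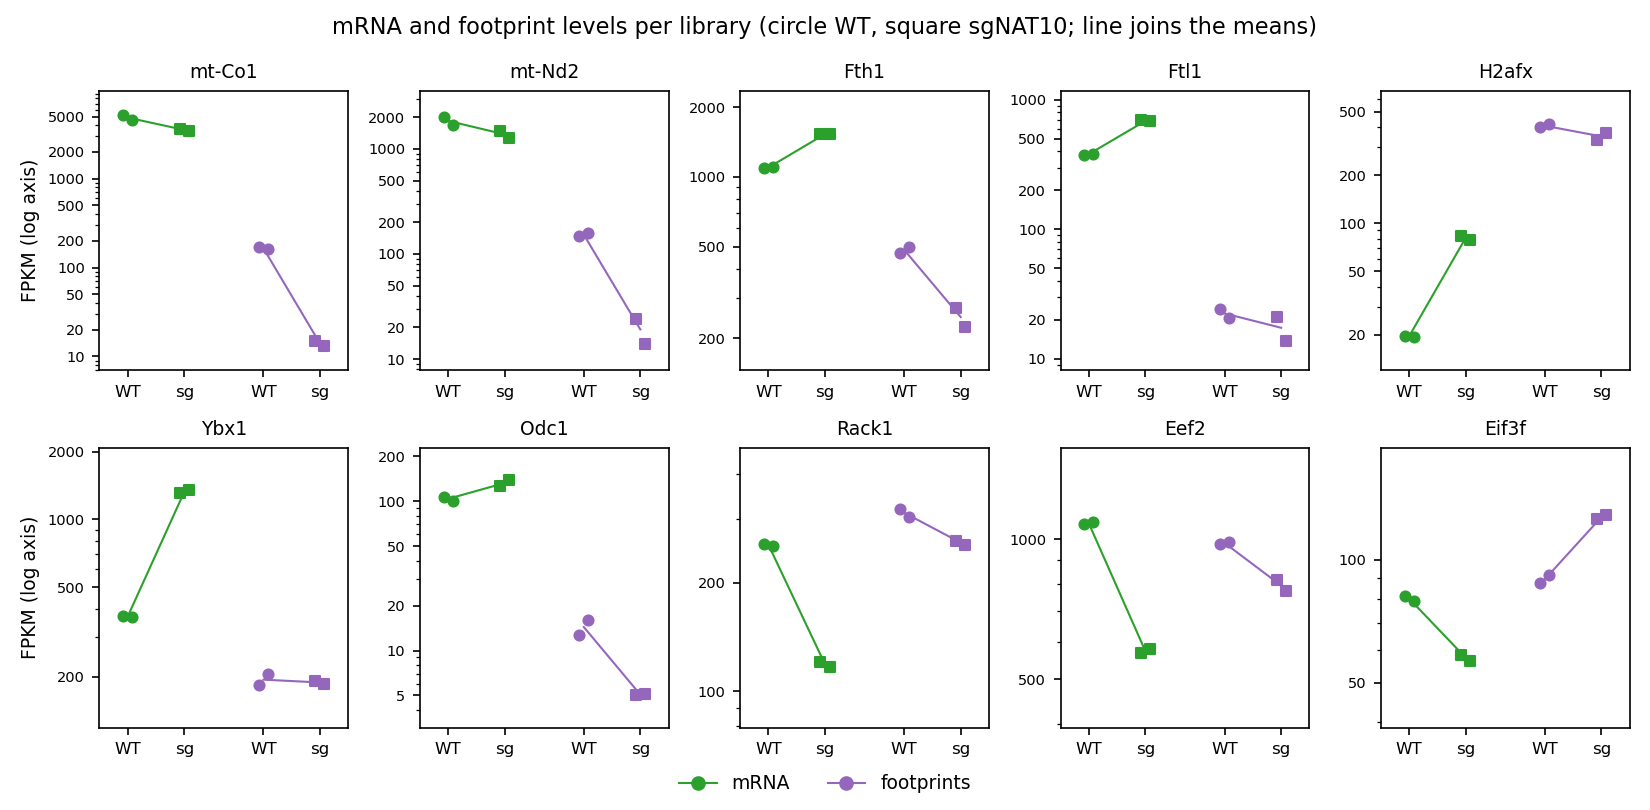
mRNA (green) and footprint (purple) levels in FPKM, on a log axis, in each library of 10 genes, with circles for WT, squares for sgNAT10 and lines joining the group means. In mt-Co1 and mt-Nd2 the footprints drop while the mRNA moves little, in Fth1 and Odc1 the 2 lines slope in opposite directions, in H2afx, Ybx1 and Ftl1 the mRNA climbs over nearly level footprints, and in Rack1 and Eef2 the mRNA drops further than the footprints.

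The ribosomal protein mRNAs and other TOP mRNAs leaned the opposite way: of 102 genes, the mRNA of 70 (68.6%) was called lower and of 7 (6.86%) higher, against 34.1% and 37.1% of all 5347. Footprints passed the test as lower in 1 of them and as higher in 1 (0.98% each, against 1.65% and 2.81%). Of 46 large subunit ribosomal protein genes, 38 had an efficiency change above 0, with a median of 0.28. Their median change was -0.31 in mRNA and -0.02 in footprints, and the mRNA of 35 (76.1%) was called lower and of 3 higher. Of 33 small subunit genes, 28 were above 0, also with a median of 0.28, from -0.13 in mRNA, with 17 (51.5%) called lower and 2 higher, and 0.07 in footprints. Of 23 other TOP mRNAs, mostly elongation and initiation factors, 17 were above 0, with a median of 0.23 from -0.32 in mRNA and -0.08 in footprints. Together 83 of the 102 were above 0 against 2522 of all 5347 genes, and the median ratio of footprint to mRNA FPKM went from 0.716 to 0.852. None of the 102 passed the test, against 0.0187% of all genes called higher, and Pabpc1 was the only one separated, in the lower direction. At an unadjusted p under 0.05 stood 37 higher and 3 lower of the 102, against 225 higher and 238 lower of all 5347 genes. The median of the large subunit genes ranged from 0.20 to 0.36 over the 16 library combinations and that of the small subunit genes from 0.21 to 0.39. Many ribosomal protein genes have processed pseudogenes, and reads shared with these copies make single levels uncertain.

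The members with the lowest adjusted p show both ways of arriving at a higher efficiency. Rack1 (chr11:48800360-48806241), a scaffold of the small subunit, fell from 256 and 253 FPKM of mRNA in WT to 121 and 117 in sgNAT10. Its footprints were 321 and 304 FPKM against 262 and 254, lower by much less, for an efficiency change of 0.82 (SE 0.119, adjusted p = 0.108). Eef2, the translocation factor of elongation, had 1075 and 1086 FPKM of mRNA against 569 and 580.5, and footprints of 976 and 986 against 815 and 775 (0.61, adjusted p = 0.145). These mRNA levels were lower by more than the footprints were, and the genotypes overlapped in neither assay. In Eif3f, a subunit of the initiation factor that loads the 40S ribosome, mRNA was 81.5 and 79.0 FPKM in WT and 58.4 and 56.6 in sgNAT10. Its footprints lay on the other side, at 87.7 and 91.5 FPKM against 126 and 129 (0.97, adjusted p = 0.108). On their own, the footprint changes of Rack1, Eef2 and Eif3f did not pass the test (adjusted p = 0.257, 0.157 and 0.125).

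Eef1a1, which brings aminoacyl-tRNA to the ribosome, had 3011 and 3087 FPKM of mRNA in WT and 2242 and 2241 in sgNAT10, and footprints of 799 and 828 against 905 and 1011 (0.68, adjusted p = 0.145). Its genotypes did not overlap in either assay. Rps29, a small subunit protein, was an exception, with 351 and 353 FPKM of mRNA against 341 and 304 and footprints of 1231 and 1361 against 791 and 689 (-0.68, adjusted p = 0.145). With 1 residual spread for both assays in place of a spread for each, genes that limma called higher included Eef2, Eef1a1, Rps19, Rack1, Rps24 and Eif3f. That fit gives footprints the smaller error of the mRNA libraries in part.

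The run at the annotated start was also set beside the changes in efficiency. The 17 measured genes of the TOP lists with the run at a RefSeq start had a median efficiency change of 0.39, and the 58 TOP-list genes whose RefSeq start lacks it had 0.28. The 118 other genes with the run had 0.01. Eif3f, Rps27, Rack1, Rpl14 and Rps15a stood at 0.97, 0.91, 0.82, 0.81 and 0.66, while Rpl38, Rpl35 and Rpl15 stood at -0.34, -0.10 and -0.03. The genes named here were picked from carriers of the run, so its presence at their starts is no result. Genes outside these lists with the run had a median near that of all genes. The annotated start can differ from the start used in these cells, which was not measured.

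Other lists of the same machinery had medians slightly below 0. The 34 other translation factors had a median of -0.05, the 54 ribosome biogenesis genes -0.07 and the 20 tRNA synthetases -0.12. In ribosome biogenesis the mRNA of 41 of 54 genes (75.9%) was called lower, against 34.1% of all genes, with a median of -0.33. The footprints had a median of -0.40, and 3 of 54 (5.56%) passed the test as lower, against 1.65%.

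**Figure D4:**
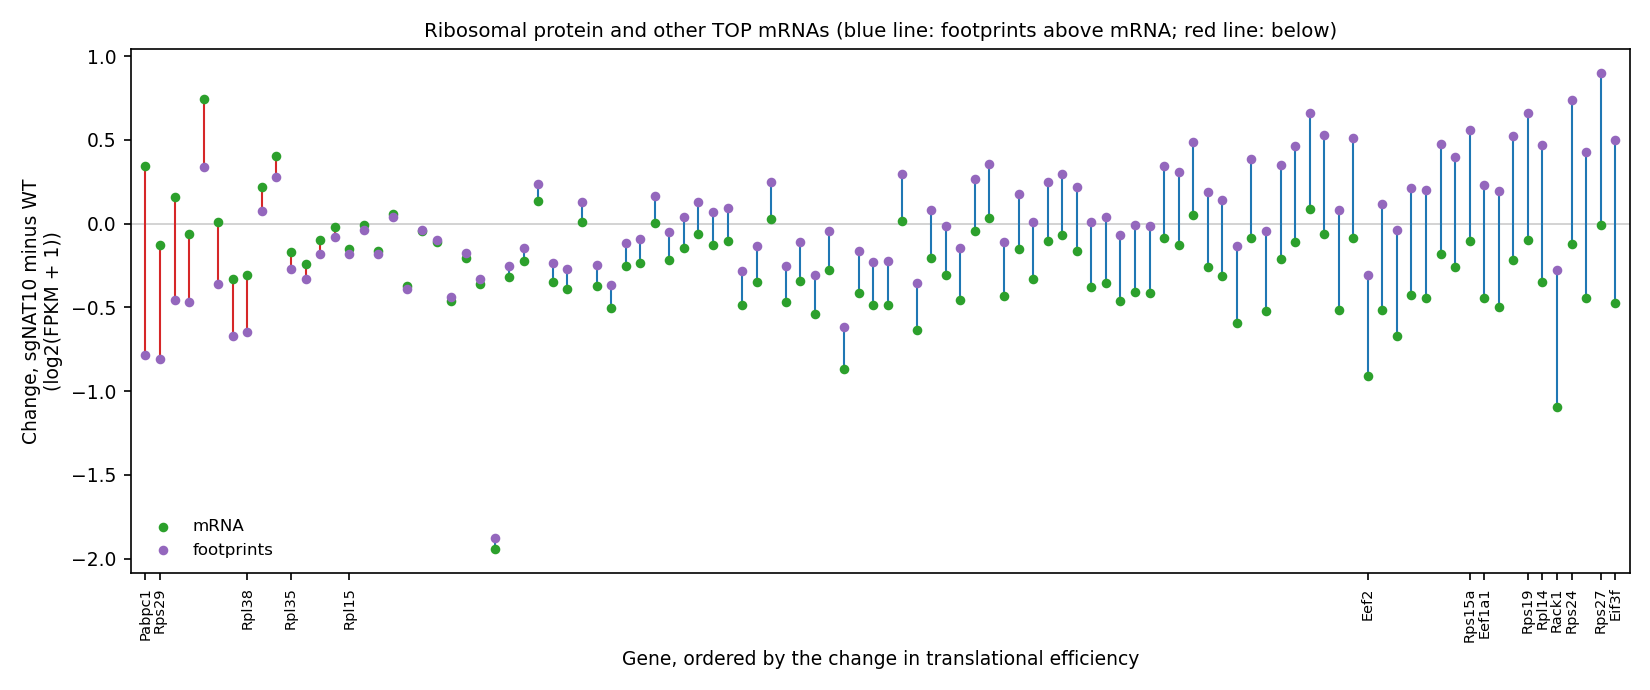
The changes in mRNA (green) and footprints (purple), sgNAT10 minus WT on the log2(FPKM + 1) scale, for the 102 TOP mRNAs, ordered along the x axis by the change in translational efficiency, with names under genes described in the text. Blue lines join genes whose footprint change lies above the mRNA change (83 genes) and red lines those where it lies below. From Pabpc1 at -1.13 to Eif3f at 0.97, most green points lie below 0 while the purple points lie on both sides of it.

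In the polyamine pathway, Odc1 and Oaz1, whose translation is known to answer to polyamines, were separated on opposite sides. Odc1 (chr12:17544808-17551502) makes putrescine, the first step of the pathway. Its mRNA was 106 and 101 FPKM in WT and 127 and 138 in sgNAT10, and its footprints were 12.7 and 16.1 against 5.02 and 5.11, from 136, 168, 61 and 30 reads. Genotypes did not overlap in either assay (-1.68, SE 0.297, adjusted p = 0.18). Oaz1, the antizyme that inhibits Odc1 and is made by a frameshift, had 80.4 and 81.8 FPKM of mRNA against 68.6 and 70.2, and footprints of 11.9 and 10.2 against 14.9 and 27.0 (1.03, adjusted p = 0.474). Neither passed the test. Of 13 listed genes, 5 were measured, and the others stood at 0.57 (Azin1, the antizyme inhibitor, whose translation also answers to polyamines), -0.10 (Srm, spermidine synthase) and 0.75 (Dhps, which uses spermidine to modify the factor eIF5A).

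Among the higher genes, Tmem203, a small membrane protein of the endoplasmic reticulum (chr2:25255439-25256352), was the one that passed the test. Its mRNA was 4.17 and 4.65 FPKM in WT and 6.25 and 4.93 in sgNAT10, at a mean of 5.002 FPKM just above the limit. Its WT means were under 5 FPKM in both assays, so it entered only through the sgNAT10 libraries, where it is high. Its footprints were listed at 0 in both WT libraries and at 21.0 and 28.5 FPKM in sgNAT10, from 32 and 21 reads. The change of 4.39 (SE 0.385, adjusted p = 0.00957, limma) depends on the pseudocount and ranged from 2.39 to 7.61 over the alternatives, so it is no measure of a fold.

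Most other higher genes also moved on the footprint side. Glipr1, a secreted protein of the CAP family, had 18.1 and 19.5 FPKM of mRNA in WT and 39.3 and 41.4 in sgNAT10, and footprints of 9.04 and 4.01 against 67.7 and 62.0 (2.15, adjusted p = 0.173). Slc25a33, a mitochondrial carrier of pyrimidine nucleotides, had 8.61 and 8.95 FPKM of mRNA against 7.20 and 7.29, and footprints of 4.87 and 2.76 against 13.8 and 18.4 (2.10, adjusted p = 0.18). Cdkn2d, an inhibitor of CDK4 and CDK6, had 8.18 and 9.31 FPKM of mRNA against 15.8 and 16.4, and footprints of 2.22 and 6.002 against 27.05 and 21.7 (1.60, adjusted p = 0.377). In each the WT footprints were low and below both sgNAT10 libraries. Slc25a33 and Cdkn2d, with WT footprint means of 3.82 and 4.11 FPKM, reached the limit in footprints only through sgNAT10.

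Other genes separated higher had low WT footprints too. H2-Q6, a class I MHC gene with near-identical neighbours, had 6.85 and 6.32 FPKM of mRNA in WT and 6.71 and 6.87 in sgNAT10, and footprints of 5.63 and 1.25 against 13.8 and 11.7 (1.79, adjusted p = 0.452). Copz2, a coat protein of Golgi vesicles, had 2.69 and 3.03 FPKM of mRNA against 11.04 and 9.40, and footprints of 1.44 and 0.148 against 12.6 and 14.7 (1.59, adjusted p = 0.432). Cebpd, a transcription factor of the acute phase response, had 3.4 and 3.84 FPKM of mRNA against 17.6 and 18.9, and footprints of 0.423 and 3.13 against 31.2 and 32.03 (1.69, adjusted p = 0.466). Copz2 and Cebpd reached the limit of 5 FPKM in both assays only through the sgNAT10 libraries, where they are high. H2-Q6, with a WT mean of 3.44 FPKM, did so in footprints. In Mospd3 the footprints overlapped, at 8.45 and 0.709 FPKM in WT and 3.96 and 7.56 in sgNAT10, while its mRNA fell from 11.07 and 11.01 to 4.76 and 4.79 (1.76, adjusted p = 0.626). Mospd3 reached the limit in mRNA only through WT, with a sgNAT10 mean of 4.78 FPKM. In footprints it did so only through sgNAT10, with a WT mean of 4.58 FPKM.

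Some separated genes were nearly silent in one genotype. Cryab, a small heat shock protein, went from 2.07 and 2.91 FPKM of mRNA in WT to 71.9 and 67.7 in sgNAT10, and from 1.29 and 0 to 138 and 136 in footprints (2.16, adjusted p = 0.219). Thy1, a surface glycoprotein, went from 1.04 and 1.35 FPKM of mRNA to 42.6 and 40.9, and from 1.38 and 3.05 to 13.7 and 15.1 in footprints (-1.98, adjusted p = 0.219). Esx1, a homeobox gene, went from 15.4 and 15.9 FPKM of mRNA to 0.263 and 0.0937, and from 43.9 and 40.4 to 0.141 and 0 in footprints (-1.51, adjusted p = 0.258). In each of these 3 both assays passed the test in the same direction. Each reached the limit of 5 FPKM in both assays only through the genotype where it is high. With a pseudocount of 0.1 or 5 in place of 1, the efficiency change of Cryab was 3.75 or 1.34 and that of Thy1 -2.28 or -1.48.

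Gatad1 and Isg20 had large lower changes on the footprint side. They reached the limit of 5 FPKM only through WT, Gatad1 in footprints and Isg20 in both assays. The former, a chromatin protein, had 19.4 and 18.2 FPKM of mRNA in WT and 24.9 and 27.2 in sgNAT10, and footprints of 10.3 and 7.82 against 1.48 and 1.67 (-2.41, adjusted p = 0.145). Isg20, an interferon-induced exonuclease, had 9.69 and 10.2 FPKM of mRNA against 4.74 and 4.33, and footprints of 24.4 and 22.6 against 3.46 and 3.43, so both fell and the footprints fell further (-1.48, adjusted p = 0.193).

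Genes not annotated as protein coding made up 61 of the 5347 and include 2 of the 8 calls. Reads of such genes in Ribo-seq libraries need not come from ribosomes. Gm24270, annotated as a miRNA gene, had 3270 and 3063 FPKM of mRNA in WT and 3272 and 6090 in sgNAT10. Its footprints were 122 and 51.4 FPKM in WT, from 22 and 9 reads, and were listed at 0 in both sgNAT10 libraries (-6.83, adjusted p = 0.000542, limma). It reached the limit in footprints only through WT. Its change depends on the pseudocount and ranged from -10.13 to -4.58 over the alternatives, so it is no measure of a fold. Gm42418 (chr17:39846354-39848202, Rn18s-rs5 in RefSeq, a copy of 18S rRNA) had 85534 and 89650 FPKM in the WT mRNA libraries and 88823 and 92530 in sgNAT10. It had 18360 and 18647 FPKM in the WT footprint libraries and 6830 and 8918 in sgNAT10 (efficiency change -1.30, SE 0.145, adjusted p = 0.0158, limma). Rny1, a Y RNA, had 255 and 224 FPKM in the WT footprint libraries and 40.0 and 36.2 in sgNAT10 (-3.09, adjusted p = 0.087). Gas5, a snoRNA host transcript that itself begins with a TOP tract, had 30.1 and 31.5 FPKM of mRNA in WT and 22.04 and 23.57 in sgNAT10, and footprints of 29.2 and 27.1 against 46.8 and 46.4 (1.13, adjusted p = 0.145). In 6 genes of small RNAs, chosen after their values were seen (Gm24270, Gm24265, Rny1, Rny3, Rn7sk and Mir6236), the mRNA library sgNAT10 replicate 2 stood above the other 3 libraries. Its part in their efficiency changes was not tested.

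The remaining gene lists held no gene called in efficiency. Of the 31 cytoskeleton genes, 23 (74.2%) rose in mRNA and 11 (35.5%) in footprints, against 37.1% and 2.81% of all genes. In mRNA 5 (16.1%) fell and in footprints 0, against 34.1% and 1.65% of all genes. The medians were 0.50 in mRNA, 0.58 in footprints and 0.09 in efficiency. The 23 immediate early and RAS-ERK feedback genes had medians of 0.47, 0.58 and 0.19 in the same order. The 46 genes of G1/S and DNA replication stood at -0.01 in efficiency, the 34 G2/M genes at -0.08, the 37 proteasome genes at -0.03, the 21 sterol synthesis genes at 0.02 and the 20 mRNAs with upstream reading frames or stress response at 0.05. The 28 collagens and matrix genes had a median of -0.14, with 24 below 0, from 0.23 in mRNA and 0.04 in footprints. The 8 interferon-stimulated genes had a median of -0.28, with 6 below 0 and Isg20 the one separated. That median ranged from -0.62 to -0.01 over the alternatives.

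Single members of these lists, given as examples, differed on either side, and none passed the test for efficiency over all genes. Ifitm3, an interferon-induced membrane protein, had 88.3 and 90.4 FPKM of mRNA in WT and 129.8 and 123.4 in sgNAT10, with footprints of 349 and 368 against 328 and 350.5 (-0.58, adjusted p = 0.219). Col8a1, a short-chain collagen, had 22.8 and 21.9 FPKM of mRNA against 36.8 and 36.9, with footprints of 111 and 130 against 133 and 118 (-0.64, adjusted p = 0.333). Atf5, a stress transcription factor whose mRNA carries upstream reading frames, had 41.8 and 45.1 FPKM of mRNA against 107.8 and 104.2, with overlapping footprints of 22.6 and 12.1 against 18.6 and 26.8 (-0.86, adjusted p = 0.58). In Ifitm3, Col8a1 and Atf5 the mRNA rose and the footprints overlapped between the genotypes.

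In other members the footprint difference was larger than the mRNA difference. Gmnn, geminin, which blocks relicensing of DNA replication, had 20.6 and 20.3 FPKM of mRNA in WT and 20.1 and 19.9 in sgNAT10, with footprints of 37.02 and 30.7 against 58.3 and 57.4 (0.79, adjusted p = 0.327). Chac1, a stress-induced enzyme that degrades glutathione, had 28.02 and 28.5 FPKM of mRNA against 31.02 and 32.9, with footprints of 30.03 and 44.6 against 23.4 and 22.7 (-0.82, adjusted p = 0.446). Mthfd2, a mitochondrial folate enzyme of the stress list, had 40.8 and 40.7 FPKM of mRNA against 38.4 and 37.9, with footprints of 27.5 and 30.3 against 36.1 and 43.5 (0.54, adjusted p = 0.549). Their footprints lay higher in sgNAT10 for Gmnn and Mthfd2 and lower for Chac1. Cdk4, a kinase that drives G1, had 137.1 and 136.8 FPKM of mRNA in WT and 148.1 and 144.9 in sgNAT10, with footprints of 80.8 and 91.9 against 150.7 and 132.5 (0.61, adjusted p = 0.354). Pfn1, which binds actin monomers, had 278 and 274.3 FPKM of mRNA against 288 and 275.6, with footprints of 645 and 638 against 474 and 494.5 (-0.43, adjusted p = 0.327). Mrpl40, a protein of the mitochondrial ribosome, had 21.1 and 20.05 FPKM of mRNA against 23.2 and 19.1, with footprints of 39.97 and 47.8 against 74.3 and 70.2 (0.68, adjusted p = 0.359). Footprints of the genotypes did not overlap in any of these 6 genes. The genes were taken from their lists for low p-values, so the absence of overlap is no result about the lists.

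In Sgk1, Fn1 and Hsp90ab1 both assays differed in the same direction. Sgk1, a serum- and glucocorticoid-regulated kinase, had 1.79 and 1.95 FPKM of mRNA in WT and 64.8 and 60.97 in sgNAT10, with footprints of 7.05 and 6.98 against 260 and 281 (efficiency change 0.61, adjusted p = 0.411). Fn1, the matrix glycoprotein fibronectin, had 21.9 and 22.5 FPKM of mRNA against 68.3 and 64.1, with footprints of 63.8 and 63.9 against 144.1 and 145.6 (-0.36, adjusted p = 0.562). Hsp90ab1, a cytosolic chaperone, had 1384 and 1398 FPKM of mRNA against 802 and 777, with footprints of 2185 and 2364 against 1544 and 1549 (0.26, adjusted p = 0.506, and -0.09 with quantile normalization). Both assays passed the test in each of these. Sgk1, with a WT mRNA mean of 1.87 FPKM, reached the limit of 5 FPKM in mRNA only through sgNAT10, where it is high.

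**Figure D5:**
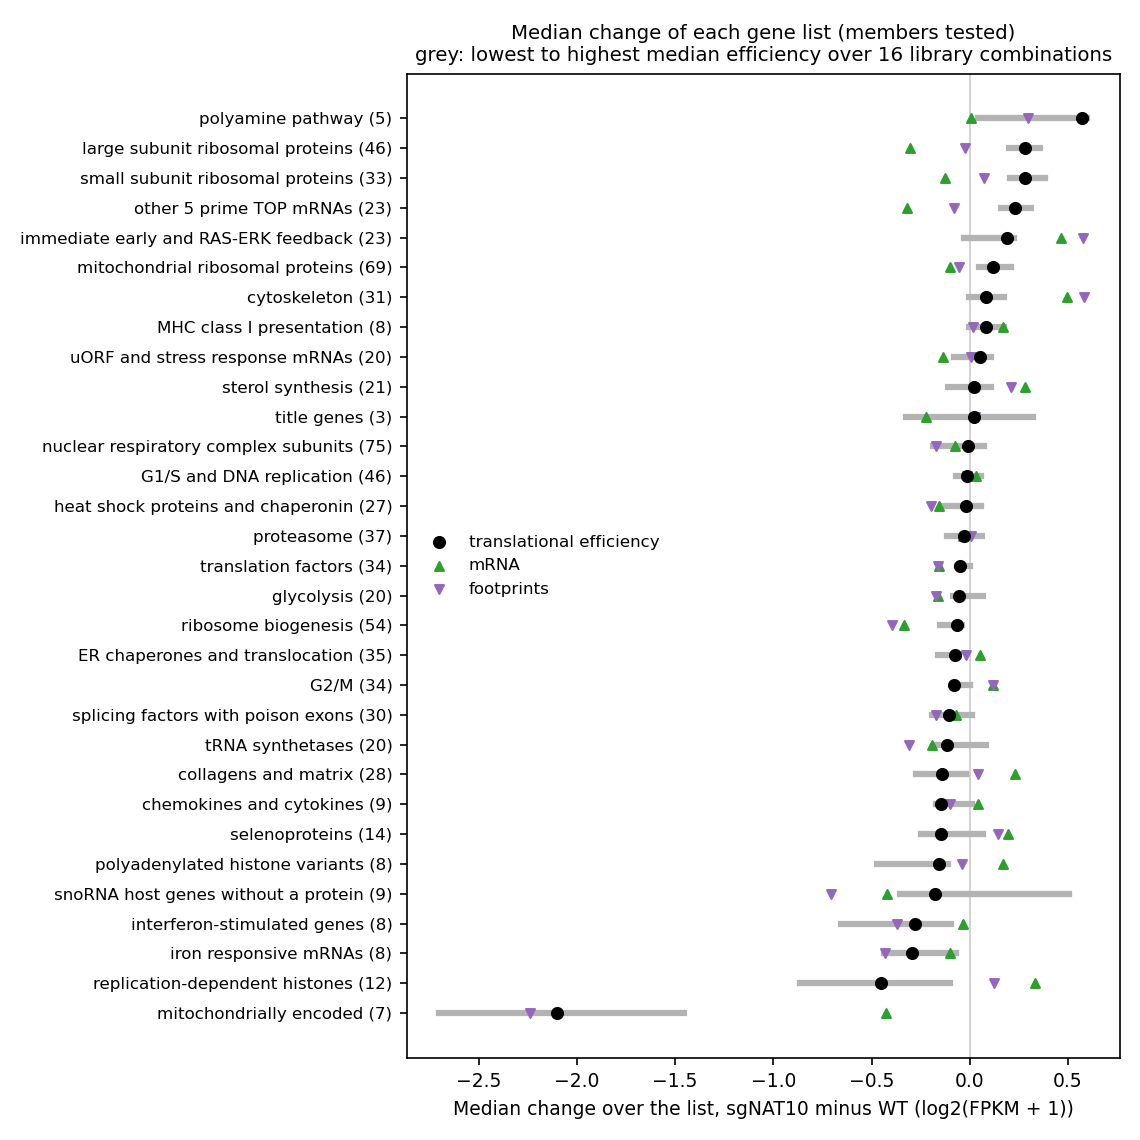
The median change in translational efficiency (black), mRNA (green) and footprints (purple) for each gene list with at least 3 measured genes, sgNAT10 minus WT on the log2(FPKM + 1) scale, with the number of measured genes in brackets. Grey bars span the lowest and highest median efficiency over the 16 library combinations. The mitochondrially encoded genes lie at -2.10, apart from the other lists, and the 3 TOP lists lie between 0.23 and 0.28 with mRNA medians below 0.

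Of the genes that the series' title names beside Nat10, Myc, Cdk2 and Dnmt1 were measured here. Myc, a transcription factor of growth, had 115 and 117 FPKM of mRNA in WT and 40.0 and 40.9 in sgNAT10, and footprints of 281 and 281 against 80.2 and 126. Both assays were lower in sgNAT10, for an efficiency change of 0.02 (adjusted p = 0.99). Cdk2, a kinase of the G1/S transition, stood at 0.45 (adjusted p = 0.663) and Dnmt1, the maintenance DNA methyltransferase, at -0.27 (adjusted p = 0.672).

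Acetylated RNA was mapped by acRIP-seq, precipitation with an antibody to N4-acetylcytidine, with 1 library of each kind per genotype. The authors' deposited table lists 1358 peaks, and 728 of the 5347 genes hold at least 1. Their median efficiency change was -0.01, against -0.03 in the 4619 genes without a peak. Of the genes with a peak, 4 were separated higher (0.549%) and 9 lower (1.24%), against 55 (1.19%) and 71 (1.54%) of those without. Ybx1, Fth1 and Gm42418, all lower, are the called genes that hold a peak, 3 of 728. Of the 4619 genes without a peak, 4 were called lower and 1 higher, and of all 5347 genes 0.131% were called lower. Genes with a peak in the 5′ UTR (85) had a median of -0.03, those with a peak in the coding sequence (488) -0.03 and those with a peak in the 3′ UTR (55) -0.09. Of the 85, Ybx1, Ftl1, Odc1 and Fth1 were separated lower (4.71%, against 1.50% of all genes). The header does not state which genotype is on top of the deposited difference: the 461 genes with a positive difference had a median of -0.01, as did the 345 with a negative one.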

How the data were processed

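Reads were handled with FastQC, Trim Galore, Bowtie2 and featureCounts on mm10, per the submitters' processing notes, which give no versions. The mRNA and Ribo-seq tables hold FPKM per gene and library, per the file headers, and how multi-mapped reads and strand were counted is not given in the sources used here. The acRIP table, as deposited by the authors, holds peaks with a fold enrichment over input and a log2 difference between genotypes. Columns of other samples not used numbered 0.

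Each assay was fitted on log2(FPKM + 1) with limma 3.58.1 (R 4.3.3, eBayes with a trend), keeping genes whose mean in that assay reached 1 FPKM. The efficiency change is the difference of the 2 changes, with Welch-Satterthwaite degrees of freedom and Benjamini-Hochberg adjustment over 5347 genes (threshold 0.05). The steps were tested on simulated data. Reads were recovered as the smallest whole numbers giving the ratios between libraries to within 1e-09, in 99.82% of mRNA and 98.61% of Ribo-seq genes. They are too low where a gene's reads share a divisor.

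Named genes were the 12 largest changes each way among called, then separated, genes (predicted genes left out), up to 3 members of each of 32 group lists (called, else lowest p) and the title genes. Others, such as predicted genes, were chosen after their values were seen, and some genes the rule names are not reported here. Markers formed 5 further lists. The members and lists were chosen with earlier results of these data known. Across genes, the deviations of replicate 1 from its genotype mean correlated between WT and sgNAT10 at -0.05 (mRNA) and 0.03 (Ribo-seq). No pairing was used in the main fit. This check cannot tell whether same-numbered samples were made together. Alternatives covered pseudocounts, filters, scalings, the form of the spread, a replicate block and leaving out each library. Gene positions and start sequences come from RefSeq on GRCm38.p6.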

Additional observations from a re-analysis of the deposited data

How the results depend on the processing

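Calls rest on the spread allowed to footprints. Efficiency was called higher in 1 gene and lower in 7; 1 residual spread for both assays gave 11 and 13, weights per assay 4 higher, and no trend 1 lower. The mean FPKM limit gave 2 higher at 1, 2 at 20 and 3 with no filter. The fit with a replicate block gave 2 higher and 10 lower, 3661 called in mRNA against 3810, and 197 in footprints against 238. Leaving out 1 library gave 0 to 1 higher and 0 to 9 lower. Footprint calls were 45 with no trend, 135 at a limit of 20, and 0 without any single Ribo-seq library. mRNA calls were 6173 at a limit of 1, 1179 at 20, 6698 with no filter, and 3206 to 3566 with a library left out.

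Separated genes numbered 59 higher and 80 lower. A pseudocount of 5 gave 24 and 41, a limit of 1 gave 224 and 235, a limit of 20 gave 5 and 20, and no filter gave 295 and 322. Leaving out a library gave 57 to 155 higher and 79 to 158 lower, with fewer combinations to agree. Those on the footprint side numbered 97, against 37, 340, 16 and 453 under these settings and 93 to 222 with a library left out. The median of genes with an acRIP peak moved from -0.0108 to 0.0300 with median scaling and 0.0383 with quantile normalization, and lay between -0.0482 and -0.00685 with a library left out. Small changes turned sign in Myc (-0.0279 with a pseudocount of 5, and -0.30 to 0.34 with a library left out). So did those of Actb (-0.0128) and Hsp90ab1 (-0.0949) with quantile normalization. The larger change of Rn7sk (0.98, SE 0.956) also turned, and ran from -0.49 to 2.44 with a library left out. The cause was not tested. With no trend, only Tmem203 and Gm24270, each listed at 0 footprints in one genotype, kept their calls. Gm42418 also lost its call with quantile normalization and with no filter, and mt-Nd2 and Gm24270 with weights per assay. The medians of the 3 TOP lists stayed above 0 in every alternative run.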
